A study of Mus musculus with 30 samples.

Results

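The type I interferon response genes followed here were 35 genes chosen by symbol, with earlier results of these data known. Of these, 33 had a row of their own among the 19938 genes measured. Their counts set beside the share of all genes are therefore descriptions. Isg15 shared its row with another gene and was not read from it, and Ifi44 had no row in the probe table used here. Type I interferons bind a receptor made of the chains Ifnar1 and Ifnar2, whose kinases Jak1 and Tyk2 activate Stat2. Stat2 and Irf9 are parts of the factor ISGF3, which binds interferon-stimulated response elements in the promoters of genes whose products sense, bind, edit or degrade viral nucleic acids. In T cells the pathway is known to act on survival, proliferation and effector differentiation, and many of these genes also respond to interferon gamma.

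Expression was measured on 30 arrays in 10 groups of 3, described by the submitters as biological repeats. TMem were memory CD8+ T cells differentiated in vitro from Ly5.2 Pmel-1 Tg mice, and TN were naive CD8+ T cells from Ly5.1 Pmel-1 Tg mice and the cells derived from them. Pmel-1 Tg mice carry a transgenic T cell receptor specific for a melanocyte antigen, so all groups shared that receptor. Per the labels all mice were female adult C57BL/6 of 6 to 12 weeks and the cells came from spleen and were sorted by flow cytometry. TMem and TN were taken unstimulated (0 h) or at 18 h and 96 h of stimulation, given as CD3- and CD28-specific antibodies plus IL-2. Stimulated cells were cultured with the other cell type (mix) or by themselves (alone). TMem made in culture stand in for memory cells formed in an animal, and how they were made and whether mice were pooled is not given in the sources used here. All values are log2 expression values, and each difference is on the log2 scale, the first named group minus the second. A gene is said to have risen or fallen where limma's moderated test gave a Benjamini-Hochberg adjusted p under 0.05 over all 19938 genes. An exact permutation test of 3 arrays in each of 2 groups gives no p under 0.1, and the calls rest on a spread pooled over genes and groups.

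The 8 measured CD8+ T cell markers were above background in all 10 groups, with array means of 11.30 to 12.06; a group is said to be near background for a gene where its mean was under the lower quartile of all rows, averaged over its 3 arrays (5.85 to 5.98). The libraries did not all match the labelled sex. The TMem arrays had Xist, the X inactivation transcript of female cells, at 4.99 to 6.02 and the Y-linked Eif2s3y at 8.82 to 9.51. TN alone at 0 h and at 96 h had Xist at 9.34 to 12.11 and Eif2s3y at no more than 4.58, while TN mix at 18 h and 96 h and TN alone at 18 h had both, with Xist at 10.95 to 11.78 and Eif2s3y at 7.34 or above. Whether a library with both transcripts held RNA of more than 1 donor, or of TMem, was not tested, and the values of these 3 TN groups are given as those of the libraries so labelled. Cell type therefore cannot be told apart here from the sex of the mice or the Ly5 strain, and no fit without these arrays is possible for TMem against TN. TN comparisons of a group with and a group without Y transcripts carry the same limit, while the TMem groups were alike in it. Replicate 1 of TN at 0 h correlated with the other 2 arrays at r = 0.978 and 0.982, against 0.995 between those 2, and the mean of the 33 genes spread most in TMem at 0 h (9.20 ± 0.27, SD, n = 3).

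The RefSeq promoter table (assembly GRCm38.p6, 250 bases before to 50 after a transcript start) held 26 of the 35 genes, 24 of them measured, and had no entry for Rtp4, Usp18, Dhx58, Zbp1, Oas2, Mx1, Parp14, Parp9 and Ifi27l2a. The core letters of the interferon-stimulated response element (ISRE), GAAA, any 2 bases, then GAAA, on either strand, were found for 11 of the 26 genes (42.3%), and for 3.99% of all 27025 genes of the table. The letters of the gamma-activated site (GAS), TTCNNNGAA, which reads the same on both strands, were found for 6 of 26 genes (23.1%), and for 9.55% of all genes. In Isg15, not measured here, 3 ISRE matches overlapped one another, and in Bst2 matches of the 2 motifs overlapped. The promoters printed here belong to genes on which the comparisons turn, written 5′ to 3′ on the gene's strand with ISRE letters in capitals, and Irf7 is shown as one without them. Their places are chr19:34640639-34640938 (plus strand) for Ifit1, chr19:34583279-34583578 (plus) for Ifit3, chr12:26456403-26456702 (minus) for Rsad2, chr5:120777610-120777909 (minus) for Oas3, chr4:40239776-40240075 (minus) for Ddx58 and chr7:141266375-141266674 (minus) for Irf7.
Ifit1: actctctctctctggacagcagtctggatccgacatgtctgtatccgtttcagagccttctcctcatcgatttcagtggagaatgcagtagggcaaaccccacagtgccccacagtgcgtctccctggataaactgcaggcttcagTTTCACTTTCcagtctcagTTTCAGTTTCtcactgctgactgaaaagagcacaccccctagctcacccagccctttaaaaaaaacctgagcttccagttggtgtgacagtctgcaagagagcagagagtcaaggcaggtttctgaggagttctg
Ifit3: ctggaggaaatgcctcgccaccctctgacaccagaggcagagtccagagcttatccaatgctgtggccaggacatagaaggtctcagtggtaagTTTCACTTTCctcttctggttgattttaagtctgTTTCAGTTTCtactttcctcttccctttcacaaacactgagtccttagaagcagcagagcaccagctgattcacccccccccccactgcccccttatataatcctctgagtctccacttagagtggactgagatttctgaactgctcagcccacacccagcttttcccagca
Rsad2: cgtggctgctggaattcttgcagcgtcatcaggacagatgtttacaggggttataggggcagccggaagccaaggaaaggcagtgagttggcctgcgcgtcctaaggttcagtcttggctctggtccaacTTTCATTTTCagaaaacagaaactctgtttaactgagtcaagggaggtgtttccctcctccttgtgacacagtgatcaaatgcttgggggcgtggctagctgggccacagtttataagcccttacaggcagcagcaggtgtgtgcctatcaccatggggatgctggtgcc
Oas3: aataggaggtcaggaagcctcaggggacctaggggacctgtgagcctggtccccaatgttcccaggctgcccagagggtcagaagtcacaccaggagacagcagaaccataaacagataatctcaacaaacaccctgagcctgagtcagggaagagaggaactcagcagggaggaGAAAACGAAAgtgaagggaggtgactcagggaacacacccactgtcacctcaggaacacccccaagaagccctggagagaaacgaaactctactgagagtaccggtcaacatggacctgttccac
Ddx58: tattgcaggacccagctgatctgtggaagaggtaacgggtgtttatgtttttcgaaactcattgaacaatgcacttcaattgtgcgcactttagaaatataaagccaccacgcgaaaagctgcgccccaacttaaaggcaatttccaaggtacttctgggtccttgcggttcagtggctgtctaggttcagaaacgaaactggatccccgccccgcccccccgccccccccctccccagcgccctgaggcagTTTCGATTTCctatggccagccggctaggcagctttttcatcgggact
Irf7: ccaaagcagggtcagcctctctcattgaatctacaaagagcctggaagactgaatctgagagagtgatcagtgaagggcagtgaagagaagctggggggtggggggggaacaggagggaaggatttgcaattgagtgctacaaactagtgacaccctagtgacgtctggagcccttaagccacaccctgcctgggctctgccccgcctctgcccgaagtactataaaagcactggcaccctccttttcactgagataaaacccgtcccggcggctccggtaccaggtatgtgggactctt
The matches lay at bases -104 to -95 and -85 to -76 from the start in Ifit1, -156 to -147 and -122 to -113 in Ifit3, -120 to -111 in Rsad2, -75 to -66 in Oas3, and 3 to 12 in Ddx58. A match is a run of letters, not a shown binding site.

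**Figure D1:**
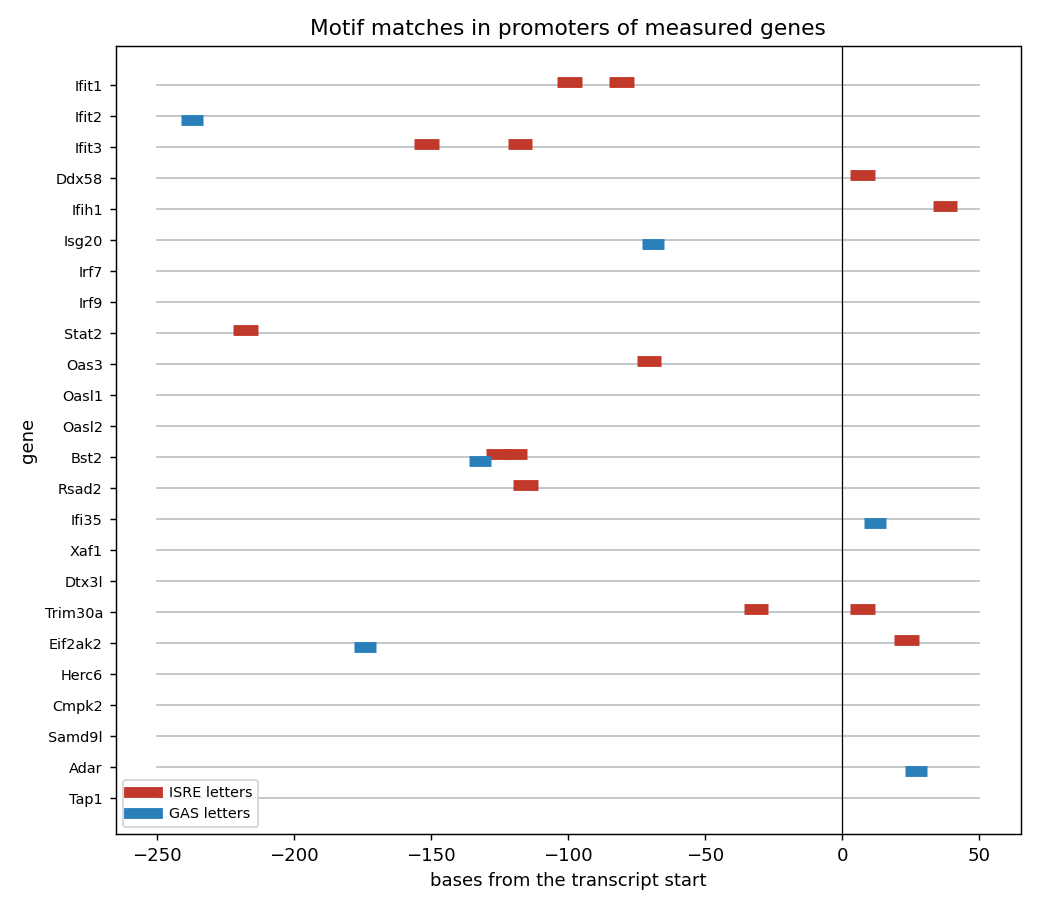
Positions of ISRE letters (red) and GAS letters (blue) in the promoters of the 24 measured genes with an entry, in bases from the transcript start; grey lines span the bases read, and several promoters of 1 gene share a line. ISRE letters were present for 10 of these 24 genes, before the start in Ifit1, Ifit3, Stat2, Oas3, Bst2 and Rsad2 and after it in Ddx58, Ifih1 and Eif2ak2, with both in the promoters of Trim30a.

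Across the 10 groups the median span of the 33 genes, from the lowest to the highest group mean, was 1.70 (range 0.73 for Bst2 to 4.88 for Ifit3), against 0.52 over all genes. Of the 33 genes, 29 were lowest in a stimulated TMem group, none of them in TMem mix at 96 h, and 30 were highest in a TN group. The shares of all genes with these patterns were not counted. Averaged over the 33 genes, the stimulated TMem groups lay at 8.18 to 8.73, TMem at 0 h at 9.20, and the TN groups at 9.22 to 9.43. Ifit3 had its lowest group mean, 6.32, in TMem alone at 96 h and its highest, 11.20, in TN at 0 h.

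**Figure D2:**
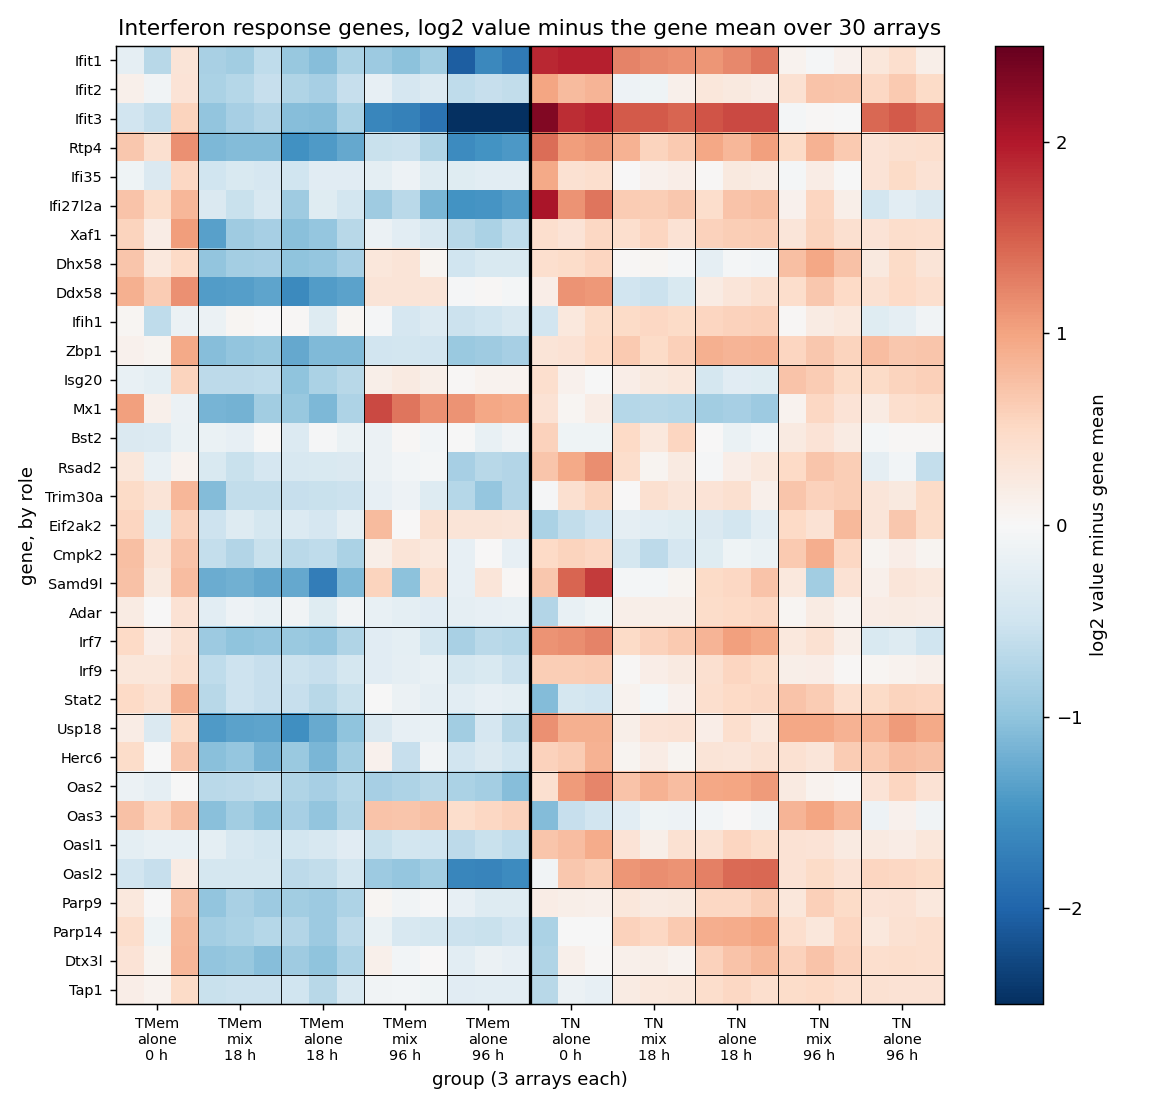
Log2 value of each of the 33 genes (rows, grouped by role) on each of the 30 arrays (columns, 3 per group), minus the gene's mean over all arrays; red is above and blue below that mean. TMem groups are left and TN groups right of the thick line, and most genes are blue in TMem at 18 h, while Mx1 and Oas3 are red in TMem at 96 h.

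TMem against TN asks how memory and naive cells differ in these genes before and after stimulation. After stimulation most of the 33 genes were lower in TMem. At 18 h alone 30 of 33 fell and none rose, where 15.4% of all genes rose and 13.5% fell, with a median difference of -1.09 against -0.04 over all genes. At 18 h in the mix 30 fell and none rose, where 11.8% of all genes rose and 8.64% fell (median -0.90 against 0.01). At 96 h 26 fell and 2 rose in the alone cultures, where 14.1% of all genes rose and 8.02% fell (median -0.68 against 0.01), and 25 fell and 1 rose in the mixed cultures, where 6.68% of all genes rose and 3.94% fell (median -0.60 against -0.05). At 0 h 14 fell and 7 rose in TMem, where 18.4% of all genes rose and 17.5% fell (median -0.30 against 0.02). Fitted on the 0 h groups alone, 13 of the 33 genes were called, where 20.5% of all genes were. With all groups in the fit it was 21 of 33, where 35.9% of all genes were called. Ifit1, Ifit2, Ifit3, Rtp4, Irf7, Irf9, Usp18, Oas2, Oasl1, Oasl2, Rsad2 and Ifi27l2a, 12 genes, were lower in TMem in all 5 comparisons, where 0.782% of all genes were. In the 4 after stimulation 24 of the 33 were lower, where 1.4% of all genes were. As the 33 were chosen with earlier results of these data known, these shares are descriptions. Mx1 and Eif2ak2 were called lower in none of the 5 comparisons.

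**Figure D3:**
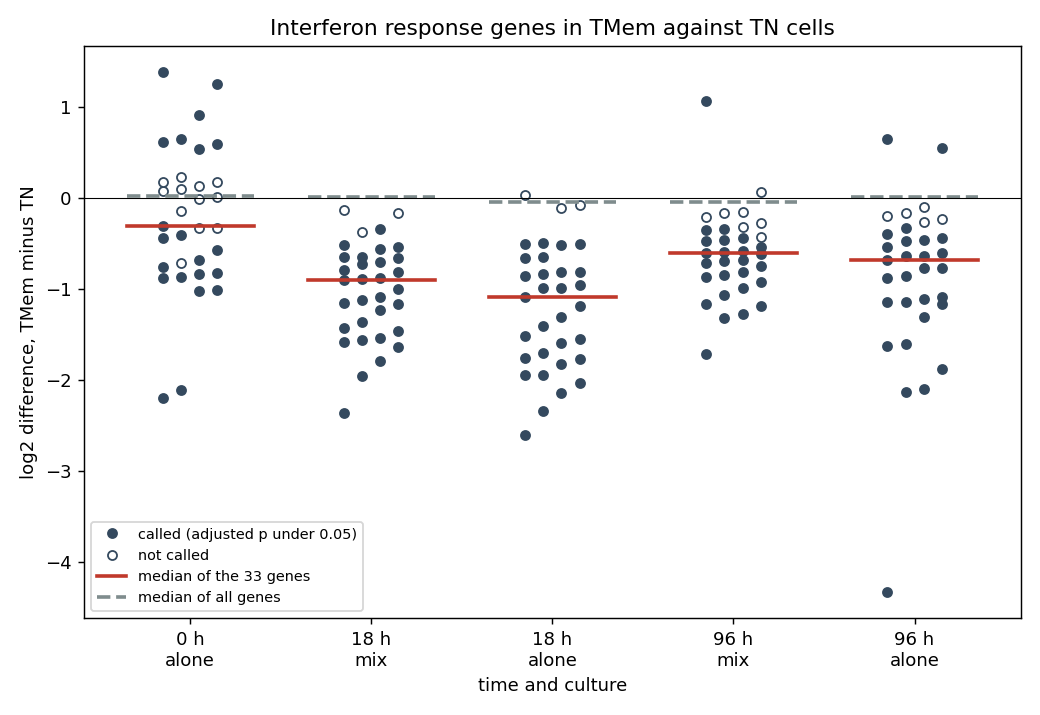
Log2 difference of each of the 33 genes, TMem minus TN, in the 5 comparisons of the cell types (3 arrays per group); filled points had an adjusted p under 0.05, red lines are medians of the 33 genes and dashed lines medians of all genes. The red line is at -0.30 at 0 h and between -1.09 and -0.60 after stimulation, and the dashed line stays within -0.05 to 0.02.

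The Ifit proteins bind viral RNA that lacks the marks of host messages. Ifit3 read 6.27, 6.58 and 6.11 in TMem alone at 96 h, against 10.62, 10.71 and 10.61 in TN alone, a difference of -4.33 (SE 0.18, adjusted p = 2.06e-16). These groups lay far apart, and no other difference between the cell types among the 33 genes was as large. In the mix at 96 h Ifit3 read 7.55, 7.49 and 7.34 in TMem and 9.13, 9.21 and 9.18 in TN, a difference of -1.71 (SE 0.18, adjusted p = 7.29e-08). Ifit1 read 7.29, 7.17 and 7.45 in TMem alone at 18 h, against 9.34, 9.43 and 9.57 in TN alone, and the difference was -2.15 (SE 0.15, adjusted p = 2.91e-12). Every TMem array was below every TN array. Over the 5 comparisons the Ifit2 difference was -1.15 to -0.66. Ifit3b, a close relative of Ifit3 on a row of its own, had means of 3.49 to 4.32 in the TMem groups and 4.80 to 6.40 in the TN groups, near background in all but TN at 0 h. Cross-hybridization between the relatives was not tested.

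Of the transcription factors, Irf7, which drives interferon genes, read 8.19, 8.17 and 8.37 in TMem alone at 18 h, against 9.98, 10.16 and 10.08 in TN alone, a difference of -1.83 (SE 0.09, adjusted p = 1.43e-15). The groups were well apart. Irf9, the DNA-binding part of ISGF3, differed by -0.30 (SE 0.07) at 0 h, a call lost when only the 0 h groups were fitted, and by -0.99 (SE 0.07) at 18 h alone. Stat2 went the other way at 0 h, with 9.64, 9.53 and 10.04 in TMem against 8.06, 8.72 and 8.67 in TN and a difference of 1.25 (SE 0.13, adjusted p = 4.98e-09). At 18 h alone Stat2 was lower in TMem (-1.09, SE 0.13). The same turn, higher in TMem at 0 h and lower in all 4 comparisons after stimulation, was called for Parp14, Dtx3l, Adar and Tap1. The share of all genes with this turn was not counted. At 0 h 7 of the 33 genes rose, where 18.4% of all genes did. Dtx3l is a ubiquitin ligase that works with Parp9, Parp14 is a relative of Parp9, Adar edits adenosine in double-stranded RNA and Tap1 carries peptides for class I presentation. At 0 h the arrays of Parp14 and Dtx3l overlapped between the cell types, and the calls of Parp14, Dtx3l and Adar were lost when only the 0 h groups were fitted. Replicate 1 of TN had the lowest TN value of all 5 genes, and without it the 5 calls held.

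The sensors of nucleic acids were not called at 0 h. Ddx58 (RIG-I), a sensor of viral RNA ends, read 8.23, 8.42 and 8.48 in TMem alone at 18 h against 10.03, 10.13 and 10.23 in TN alone, a difference of -1.75 (SE 0.15, adjusted p = 2.97e-10). At 96 h the Ddx58 difference was -0.44 (SE 0.15, adjusted p = 0.0396) in the alone cultures, a call lost without any 1 of these 6 arrays, and -0.21 (SE 0.15, adjusted p = 0.431) in the mix. Zbp1, a sensor of Z-form nucleic acids, read 8.76, 8.93 and 8.94 in TMem alone at 18 h against 10.94, 10.89 and 10.90 in TN alone (-2.03, SE 0.13). No array of TMem reached the lowest of TN. Dhx58 (LGP2), a regulator of Ddx58 and Ifih1, differed by -0.81 (SE 0.10) at 18 h alone. Ifih1 (MDA5), a sensor of long double-stranded RNA, was lower at 18 h, with differences of -0.65 (SE 0.17) alone and -0.52 (SE 0.17) in the mix, and the call in the mix was lost without any 1 of 5 of the 6 arrays.

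Within the OAS family, Oas2 and Oas3 make the oligoadenylates that activate RNase L, and Oasl1 is known in mice to restrain Irf7 translation. Oasl2 read 7.04, 7.03 and 7.11 in TMem alone at 96 h against 9.21, 9.20 and 9.16 in TN alone, a difference of -2.13 (SE 0.15, adjusted p = 1.25e-11). Oas3 was higher in TMem at 0 h, with 9.64, 9.44 and 9.65 in TMem against 7.82, 8.34 and 8.43 in TN (1.38, SE 0.11). It was lower in TMem at 18 h, with differences of -0.81 (SE 0.11) alone and -0.81 (SE 0.11) in the mix, and higher again in TMem alone at 96 h (0.54, SE 0.11). Over the 5 comparisons Oas2 differed by -1.77 to -0.87 and Oasl1 by -1.01 to -0.65, all called lower in TMem.

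Among the other antiviral genes, Mx1, a GTPase that blocks influenza virus in some mice and is defective in C57BL/6, read 8.36, 8.06 and 7.86 in TMem mix at 96 h against 6.80, 7.23 and 7.05 in TN mix, a difference of 1.07 (SE 0.18, adjusted p = 0.000118). At 18 h Mx1 was near background in both TMem groups and in TN alone, with means of 5.64 to 5.84. Eif2ak2 (PKR), a kinase that stops translation on sensing double-stranded RNA, was higher in TMem at 0 h (0.91, SE 0.17) and not called after stimulation, with 95% intervals of -0.32 to 0.39 at 18 h alone and -0.52 to 0.19 at 96 h alone. Rsad2 (viperin), an enzyme that makes a chain-terminating nucleotide, differed by -0.87 to -0.46 over the 5 comparisons, with the call at 96 h alone lost without replicate 2 of TN, and Rtp4, a receptor transporter, by -2.34 to -0.45. At 0 h the Rtp4 arrays overlapped, and its call was lost without replicate 1 of TN or replicate 2 of TMem.

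Most of the remaining genes were lower in TMem in at least 4 of the 5 comparisons. Xaf1, a proapoptotic factor, differed by -1.51 to 0.17 between TMem and TN over the 5 comparisons, and Parp9, an ADP-ribosyltransferase, by -1.41 to 0.18. Ifi27l2a differed by -1.18 to -0.83 and Usp18, which removes ISG15 from proteins and restrains the receptor, by -1.64 to -0.88, called lower in all 5. Herc6, a ligase that attaches ISG15 in mice, differed by -1.31 to -0.33, Cmpk2 by -0.51 to 0.07 and Samd9l, a regulator of translation, by -1.95 to 0.06. The range was -1.14 to 0.23 for Trim30a, -0.88 to -0.14 for Isg20, -0.56 to -0.10 for Bst2 and -0.68 to -0.27 for Ifi35, which binds Nmi. TMem was called lower in 4 of the 5 comparisons for Xaf1, Parp9, Herc6, Trim30a, Isg20 and Ifi35, and in 2 for Cmpk2, Samd9l and Bst2.

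Marker lists of other cells moved with cell type in places. The plasmacytoid dendritic cell list, of cells known as a source of type I interferon, had array means of 7.05 to 7.08 in TMem alone and 7.79 to 7.80 in TN alone at 96 h over 10 markers, of which 2 (Ccr9 and Tlr7) were near background in TMem and none in TN. The B cell list of 11 markers read 6.16 to 6.22 in TMem alone and 7.28 to 7.34 in TN alone at 96 h, with 4 near background in TMem and 3 in TN. At 18 h the plasmacytoid list read 7.38 to 7.47 in TMem alone and 7.65 to 7.77 in TN alone. The B cell list read 6.31 to 6.45 in TMem alone and 6.29 to 6.33 in TN alone. The plasmacytoid markers were split, with 5 of 10 called lower and 3 higher in TMem alone at 18 h, and 5 lower and 1 higher at 96 h. Of the 11 B cell markers 2 were called higher and 0 lower at 18 h, and 5 lower and 0 higher at 96 h. Markers of mast cells and basophils read 5.86 to 5.95 in TMem alone and 6.54 to 6.69 in TN alone at 96 h, with 5 of 8 called lower, and 6.37 to 6.74 in TMem and 5.77 to 5.97 in TN at 0 h, with 4 called higher. Erythroid and platelet markers read 6.14 to 6.24 in TMem alone and 6.68 to 6.82 in TN alone at 96 h, with 3 of 4 lower, and 7.33 to 7.50 in TMem and 6.42 to 6.68 in TN at 0 h, with 3 higher. The CD8+ T cell markers themselves were lower in TMem alone than in TN alone at 18 h for 6 of 8 and higher for 1 (median -0.65), with array means of 11.30 to 11.42 in TMem and 11.81 to 11.87 in TN. Of all genes, 13.5% were called lower and 15.4% higher in TMem alone than in TN alone at 18 h. At 96 h alone 8.02% were lower and 14.1% higher, and at 0 h 17.5% lower and 18.4% higher. The part of these lists in the differences was not tested. In bulk RNA fewer cells of a type and less RNA per cell cannot be told apart.

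After 18 h of stimulation most of the genes were lower in TMem than at 0 h. Of the 33, 28 fell and none rose in TMem alone against 0 h, where 18% of all genes rose and 17.3% fell (median -1.14 against -0.09). In TN alone 14 fell and 10 rose, where 17.1% of all genes rose and 16.7% fell (median -0.24 against -0.02). Ddx58 read 8.23, 8.42 and 8.48 in TMem alone at 18 h against 10.72, 10.47 and 10.96 at 0 h, a difference of -2.34 (SE 0.15, adjusted p = 8.88e-13). Rtp4 read 7.32, 7.41 and 7.55 at 18 h against 9.50, 9.23 and 9.96 at 0 h (-2.14, SE 0.13). For both genes the 18 h arrays lay well below those of 0 h. In TN, Parp14 read 10.24, 10.25 and 10.31 at 18 h against 8.54, 9.32 and 9.32 at 0 h (1.21, SE 0.17). Mx1 averaged 5.84 at 18 h, near background, so its difference may be understated, against 6.92 at 0 h (-1.07, SE 0.18). The genes that fell in TN were Ifit1, Ifit2, Dhx58, Ddx58, Isg20, Irf7, Usp18, Oasl1, Mx1, Rsad2, Ifi35, Ifi27l2a, Herc6 and Cmpk2, and those that rose were Ifih1, Stat2, Oas3, Oasl2, Parp9, Parp14, Dtx3l, Zbp1, Adar and Tap1. The calls of Ddx58, Ifih1, Irf7, Ifi35 and Herc6 were each lost without at least 1 of these arrays. In TMem other lists moved over the same 18 h. Of the CD8+ T cell markers 6 of 8 fell and 1 rose (median -0.39). Of the mast cell and basophil markers 5 of 8 fell (median -0.33), of the erythroid and platelet markers 3 of 4 fell (median -0.83), and of the plasmacytoid dendritic cell markers 4 of 10 fell and 2 rose. Their part in the TMem values was not tested. TN at 18 h carried Y transcripts and TN at 0 h did not, and the part of this in the TN values was not tested.

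The change over 18 h differed between the cell types for 22 of 33 genes, all with the TMem change below the TN change, where the TMem change was below the TN change for 14.7% of all genes and above it for 14.2% (median -0.88 against -0.06). The TMem change minus the TN change was -2.35 (SE 0.24, adjusted p = 1.2e-08) for Parp14, -2.34 (SE 0.18) for Stat2, -2.21 (SE 0.22) for Dtx3l and -2.20 (SE 0.15) for Oas3. Ifit1, Ifit2 and Ifit3 were not among the 22, with values of -0.03, -0.20 and -0.41. The calls of Usp18 and Samd9l were lost with centred arrays.

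Between 18 h and 96 h, 23 of the 33 genes rose and 3 fell in TMem mix, where 16.1% of all genes rose and 11.5% fell (median 0.48 against -0.03). In TMem alone 13 rose and 6 fell, where 14.6% of all genes rose and 9.87% fell (median 0.19 against 0.04). In TN mix 13 rose and 5 fell, where 20.6% of all genes rose and 16.5% fell (median 0.03 against 0.07), and in TN alone 8 rose and 11 fell, where 11.3% of all genes rose and 13.1% fell (median -0.17 against -0.01). Mx1 rose in all 4, by 2.45 in TMem mix, 1.95 in TMem alone, 1.02 in TN mix and 1.23 in TN alone. As Mx1 was near background at 18 h in both TMem groups and in TN alone, those 3 values may understate the change. Ddx58 rose by 1.69 (SE 0.15) in TMem mix and 1.44 (SE 0.15) in TMem alone. The Ifit3 difference was -0.87 in TMem mix, -1.89 in TMem alone and -1.52 in TN mix, all called, and -0.17 (SE 0.18, adjusted p = 0.643) in TN alone. Irf7 differed by 0.63 (SE 0.09) in TMem mix and by -1.35 (SE 0.09) in TN alone. Usp18 rose in all 4, by 1.11 in TMem mix, 0.61 in TMem alone, 0.66 in TN mix and 0.68 in TN alone. Of the TN groups only those alone differed in Y transcripts here, present at 18 h and near background at 96 h, and their part in these values was not tested.

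**Figure D4:**
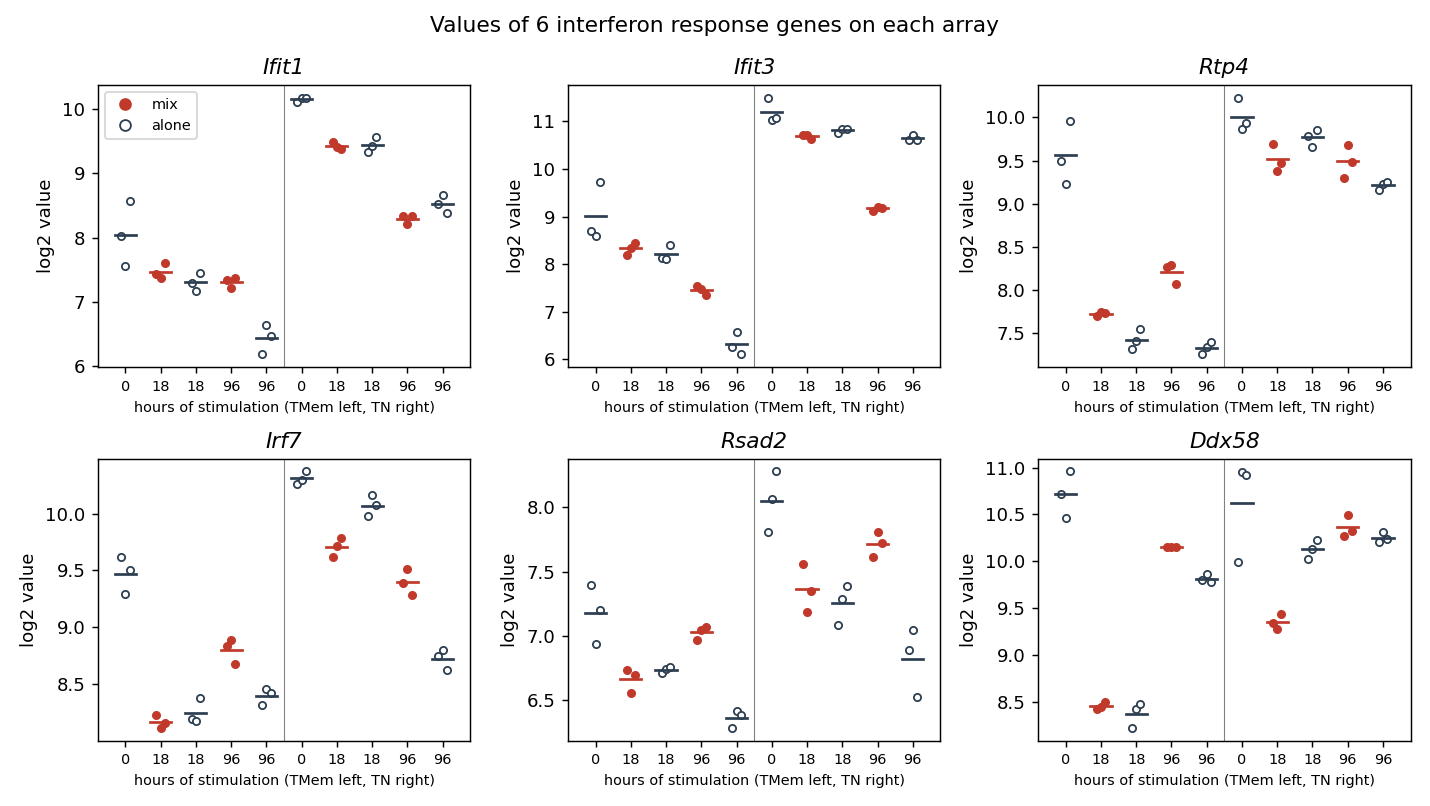
Log2 values of Ifit1, Ifit3, Rtp4, Irf7, Rsad2 and Ddx58 on each array, with TMem left and TN right of the grey line and hours of stimulation on the x axis; red filled points are mix, open points alone, and bars are means of 3 arrays. Each panel has its own y axis. In TMem at 96 h the red points lie above the open ones in all 6 panels, and in TN at 96 h the red Ifit3 points (9.13 to 9.21) lie below the open ones (10.61 to 10.71).

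Mix against alone asks what culture with the other cell type does to each of them. In TMem at 18 h limma called none of the 33 genes, where 0.0301% of all genes (6) were called. An unadjusted p under 0.05 was found for 1 of the 33, and for 3.03% of all genes. At 96 h 8 of the 33 rose in TMem mix and none fell, where 0.968% of all genes rose and 0.15% fell. The difference was above 0 for 31 of 33 (the exceptions were Samd9l and Adar), and the median was 0.26 against -0.01 over all genes. Samd9l ran from 8.10 to 9.69 over the TMem mix arrays, with replicate 2 the low one, against a mean of 9.18 in TMem alone. For 24 of 33 the arrays of the 2 groups did not overlap, where 21.5% of all genes did not.

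Ifit3 read 7.55, 7.49 and 7.34 in TMem mix at 96 h against 6.27, 6.58 and 6.11 in TMem alone, a difference of 1.14 (SE 0.18, adjusted p = 0.000464). Rtp4 read 8.27, 8.29 and 8.07 in TMem mix against 7.26, 7.34 and 7.40 in TMem alone, a difference of 0.88 (SE 0.13, adjusted p = 0.000247). Ifit1 read 7.33, 7.21 and 7.36 in TMem mix against 6.18, 6.63 and 6.47 in TMem alone (0.87, SE 0.15). Every mix array was above every alone array for these 3 genes. Dhx58 read 8.75, 8.78 and 8.52 against 7.97, 8.08 and 8.08 in TMem alone (0.65, SE 0.10), and Rsad2 read 6.97, 7.04 and 7.07 against 6.29, 6.42 and 6.38 in TMem alone (0.67, SE 0.13). Oasl2 (0.70, SE 0.15), Trim30a, a ubiquitin ligase (0.58, SE 0.14), and Irf7 (0.40, SE 0.09) also rose. The Trim30a call was lost with quantile normalisation, with centred arrays and without any 1 of the 6 arrays, and those of Irf7 and Oasl2 without any 1 of 4 of them. In all 5 genes were called without replicate 1 of either TMem group, against 8 with all arrays. Of all genes 0.527% were called without that of TMem alone and 0.627% without that of TMem mix, against 1.12% with all arrays. Cmpk2, a mitochondrial nucleotide kinase, differed by 0.37 (SE 0.11, adjusted p = 0.0994), and Usp18 by 0.41 (SE 0.15, adjusted p = 0.327). Eif2s3y read 8.87 to 9.51 in TMem mix and 9.22 to 9.33 in TMem alone. As it was high in all TMem groups, it could not show RNA of TN in TMem mix. Xist, high in the TN groups, read 4.99 to 5.47 in TMem mix and 5.22 to 5.68 in TMem alone, near background in both. The plasmacytoid dendritic cell list read 6.91 to 7.19 in TMem mix and 7.05 to 7.08 in TMem alone, and the B cell list 6.30 to 6.42 in TMem mix and 6.16 to 6.22 in TMem alone. Of the B cell list H2-Ab1, a class II gene, was called higher in TMem mix (0.92, SE 0.16) and so was Cd79b (0.48, SE 0.10), while Cd79a, Ms4a1 and Ebf1 were near background in both groups. The part of these transcripts was not tested.

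**Figure D5:**
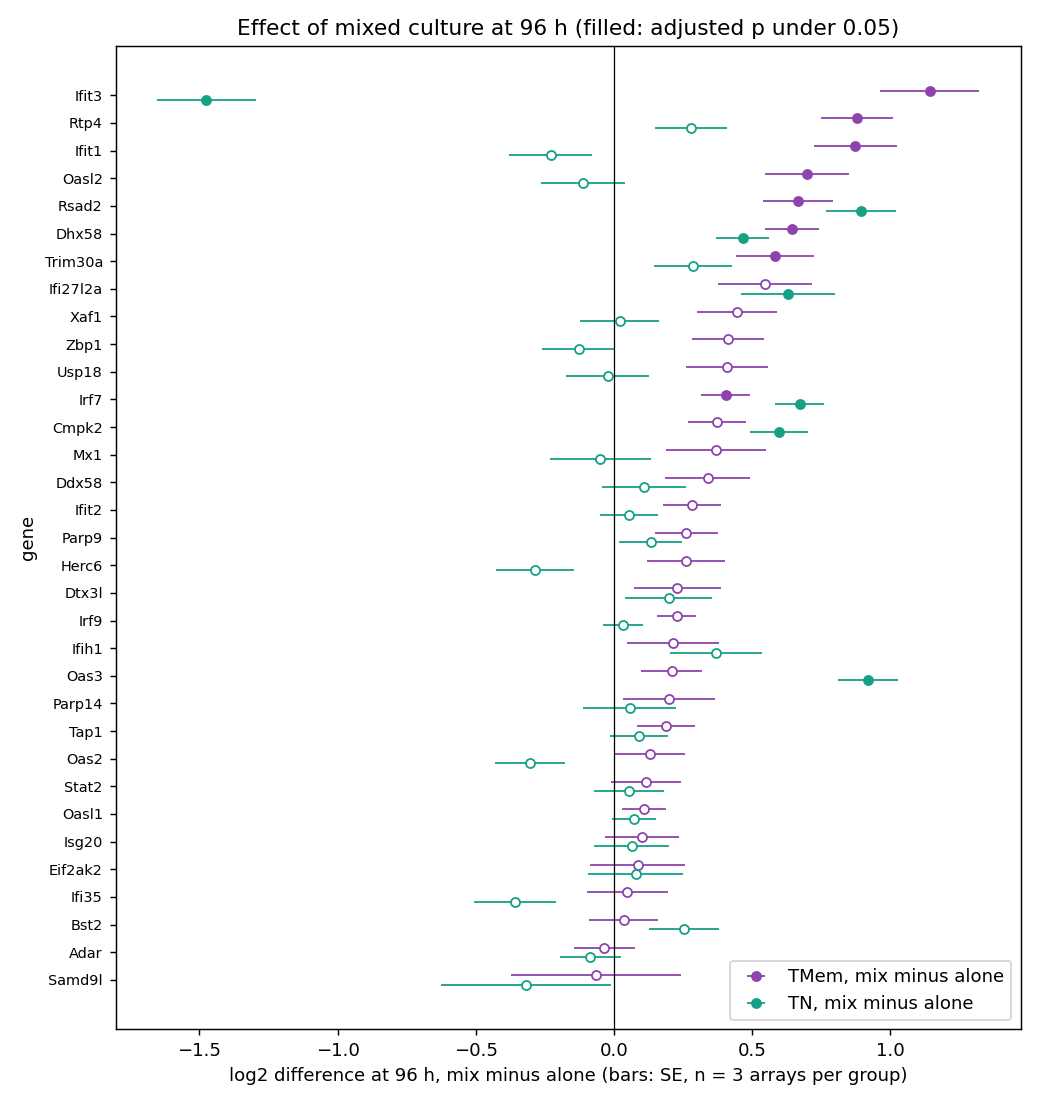
Log2 difference of each of the 33 genes at 96 h, mix minus alone, in TMem (purple) and TN (green), ordered by the TMem difference; bars are SE of the fit (3 arrays per group) and filled points had an adjusted p under 0.05. In TMem 31 of 33 points lie above 0, and Ifit3 is at 1.14 in TMem and -1.47 in TN.

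In TN at 96 h 6 of 33 genes rose in the mix and 1 fell, where 7% of all genes rose and 3.62% fell (median 0.06 against 0.05). Oas3 read 9.76, 9.89 and 9.73 in TN mix against 8.78, 9.01 and 8.83 in TN alone, a difference of 0.92 (SE 0.11, adjusted p = 8.24e-07). Rsad2 read 7.61, 7.81 and 7.73 in TN mix against 6.89, 7.05 and 6.52 in TN alone (0.89, SE 0.13), and Cmpk2, its neighbour on chromosome 12, rose by 0.60 (SE 0.11). Irf7 (0.67, SE 0.09), Dhx58 (0.47, SE 0.10) and Ifi27l2a, whose product is an interferon-induced membrane protein (0.63, SE 0.17), also rose. Ifit3 read 9.13, 9.21 and 9.18 in TN mix against 10.62, 10.71 and 10.61 in TN alone, a difference of -1.47 (SE 0.18, adjusted p = 1.27e-06). The arrays of the 2 groups did not overlap for any of these 7 genes. As the 7 were picked by their calls, this adds no support of its own. The Ifi27l2a call was lost without replicate 1 of TN alone or replicate 2 of TN mix.

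Other transcripts also separated these TN groups. Eif2s3y was at 7.34 to 7.89 in TN mix and 4.13 to 4.20 in TN alone. The B cell list read 6.66 to 6.72 in TN mix and 7.28 to 7.34 in TN alone, with Cd79a, Ms4a1 and Ebf1 of 11 near background in both. The macrophage, monocyte and dendritic cell list read 6.43 to 6.57 in TN mix, with 5 of 12 near background, and 6.92 to 6.95 in TN alone, with 3. The mast cell and basophil list read 5.91 to 6.06 in TN mix and 6.54 to 6.69 in TN alone, with Mcpt4, Ms4a2 and Fcer1a of 8 near background in both. The plasmacytoid list read 7.47 to 7.57 in TN mix and 7.79 to 7.80 in TN alone. Their part in the TN values was not tested.

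In TN at 18 h, 2 of 33 genes rose in the mix and 7 fell, where 6.3% of all genes rose and 8.15% fell (median -0.21 against -0.01). Ddx58 read 9.35, 9.28 and 9.44 in TN mix against 10.03, 10.13 and 10.23 in TN alone, a difference of -0.77 (SE 0.15, adjusted p = 0.000677). The groups did not overlap. The transcription factors fell, with Irf9 at -0.33 (SE 0.07), Irf7 at -0.37 (SE 0.09) and Stat2 at -0.43 (SE 0.13), and so did Dtx3l (-0.58), Cmpk2 (-0.32) and Adar (-0.34). Isg20, an RNA exonuclease, read 10.25, 10.32 and 10.35 in TN mix against 9.63, 9.79 and 9.77 in TN alone (0.57, SE 0.13), and Bst2 (tetherin), which holds budding virus at the cell surface, rose by 0.51 (SE 0.13). The calls of Stat2, Dtx3l, Cmpk2 and Adar were lost with each array centred on its median and also without replicate 3 of TN alone. Each of these left 5 of 33 genes called, where 14.2% of all genes were called with centring and 11.3% without that array. Without replicate 2 of TN mix, the array with the lowest mean over all genes, 6 of 33 were called, where 11.7% of all genes were. Xist and Eif2s3y were high in both groups. Markers of naive and central memory T cells read 10.23 to 10.28 in TN mix and 11.11 to 11.16 in TN alone, with 4 of 5 called lower, and markers of antigen-experienced CD8+ T cells read 9.88 to 9.93 in TN mix and 9.44 to 9.45 in TN alone, with 4 of 8 called higher. Their part in the differences was not tested.

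The effect of mixing itself differed between the cell types for few genes. At 18 h Ddx58 alone did, where 5.17% of all genes were called, with a TN effect minus TMem effect of -0.86 (SE 0.22, adjusted p = 0.0158), a call lost with centred arrays and without replicate 1 of TMem alone. At 96 h 4 of 33 did, where 3.54% of all genes were called. The TN effect minus the TMem effect was -2.62 (SE 0.25, adjusted p = 1.08e-07) for Ifit3, -1.10 (SE 0.21) for Ifit1, -0.81 (SE 0.21) for Oasl2 and 0.71 (SE 0.15) for Oas3. The Oasl2 call was lost without any 1 of 9 arrays and the Oas3 call with centred arrays. Dhx58, Irf7 and Rsad2 rose with mixing in both cell types at 96 h. In TN the effect of mixing differed between 96 h and 18 h for 8 genes, where 12.4% of all genes were called. It was more positive at 96 h for Oas3, Irf7, Cmpk2, Ddx58, Rsad2, Dtx3l and Irf9, by 0.36 to 1.04, and less positive for Ifit3 (-1.35). The calls of Irf9 and Dtx3l were lost with centred arrays. Eif2s3y averaged 4.17 in TN alone and 7.64 in TN mix at 96 h, and 8.14 in TN alone and 8.36 in TN mix at 18 h. The effect of mixing in TN at 96 h therefore cannot be told apart from this difference between the libraries. That limit holds for the TN minus TMem values at 96 h and for those between 96 h and 18 h in TN.

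Upstream of these genes, 42 of 47 listed ligands, receptors and signalling genes were measured. Of 14 type I interferon ligands with a row, 7, among them Ifnb1, had all group means near background, and as the files used hold no detection calls, expression of the other 7 was not tested. In TMem mix against alone at 96 h 1 of the 42 was called, where 0.968% of all genes rose and 0.15% fell. It was Stat4, a signal transducer of interleukin 12 and type I interferon, which rose by 0.59 (SE 0.08) in TMem and by 0.56 (SE 0.08) in TN. The receptor chain Ifnar1 differed there by 0.28 (SE 0.08, adjusted p = 0.105) in TMem. In TMem alone at 18 h against 0 h 13 of the 42 fell and 8 rose, where 17.3% of all genes fell and 18% rose, with Ifnar1 at -0.86 (SE 0.08) and Ifnar2 at -1.18 (SE 0.07). In TMem against TN at 0 h Ifnar1 and Ifnar2 were higher (0.36 and 0.55), and in the alone cultures at 96 h lower (-0.52 and -0.59). At 18 h alone 13 of 42 were lower and 4 higher in TMem than in TN, where 13.5% of all genes were lower and 15.4% higher, with Ikbke, a kinase that activates interferon regulatory factors, at -1.62 (SE 0.10) and Irf2 at -1.21 (SE 0.08). In TN mix against alone at 18 h 7 fell and 3 rose, where 8.15% of all genes fell and 6.3% rose, with Jak1 at -0.60 (SE 0.11).

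Of 62 further interferon-stimulated genes, 55 were measured. In TMem against TN alone at 18 h 44 fell and 6 rose (median -1.09), where 13.5% of all genes fell and 15.4% rose, with Slfn1, a Schlafen gene, at -2.33 (SE 0.13), Sp100, a part of nuclear bodies, at -1.76 (SE 0.10) and Ifi30, a lysosomal thiol reductase, at 2.16 (SE 0.09). In TMem alone at 18 h against 0 h 44 fell and 3 rose (median -1.15), where 17.3% of all genes fell and 18% rose, with Epsti1 at -2.64 (SE 0.08). In TMem mix at 96 h against 18 h 35 rose and 3 fell (median 0.49), where 16.1% of all genes rose and 11.5% fell, with the virus-entry inhibitors Ifitm1 at 3.69 (SE 0.09) and Ifitm3 at 3.81 (SE 0.18). In TMem mix against alone at 96 h 4 rose and none fell (median 0.18), where 0.968% of all genes rose. They were Ms4a4c (0.91, SE 0.16), Ifi209 (0.91, SE 0.18), Slfn2 (0.62, SE 0.13) and Epsti1 (0.44, SE 0.08). In TN mix against alone 19 fell and 5 rose at 18 h (median -0.20), where 8.15% of all genes fell and 6.3% rose, with Epsti1 at -0.82 (SE 0.08) and Ifitm3 at 1.14 (SE 0.18). At 96 h in TN 4 fell and 4 rose (median 0.08), where 3.62% of all genes fell and 7% rose, with Ifitm2 at 1.60 (SE 0.14) and Ms4a4c at -0.88 (SE 0.16).

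Of 37 interferon gamma genes, 28 were measured. In TMem mix against alone at 96 h limma called none (median 0.18), where 0.968% of all genes rose and 0.15% fell. An unadjusted p under 0.05 was found for 8 of the 28, and for 7.14% of all genes. There the smallest adjusted p was that of Cxcl10, at 0.51 (SE 0.19, adjusted p = 0.38). In TMem against TN alone at 18 h 20 fell and 1 rose (median -0.79), where 13.5% of all genes fell and 15.4% rose, with the guanylate-binding genes Gbp8 at -2.87 (SE 0.19) and Gbp4 at -2.68 (SE 0.18) and the factor Irf1 at -1.94 (SE 0.16). In TN alone at 18 h against 0 h 17 rose and 4 fell (median 0.45), where 17.1% of all genes rose and 16.7% fell, with the chemokine gene Cxcl10 at 3.04 (SE 0.19), and in TMem alone 16 fell and 4 rose (median -0.49), where 17.3% fell and 18% rose, with the receptor chain Ifngr1 at -2.05 (SE 0.09). In TN mix against alone at 96 h 3 fell and 3 rose, where 3.62% of all genes fell and 7% rose, with Ifng, the ligand, at -2.32 (SE 0.45) and Ifngr1 at 0.81 (SE 0.09).

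Outside all lists, the genes whose group means followed most closely the mean profile of the 33 genes over the 10 groups, among 4383 genes compared, were Gbp11 (Pearson r = 0.978), Ifi206 (0.966), Sesn3 (0.953), Ssbp2 (0.948), Idnk (0.943), Phf11c (0.942), Itpr2 (0.941), Tapbpl (0.941), Nmi (0.939) and Trp53inp1 (0.938). These are descriptions over 10 group means from the same arrays.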

How the data were processed

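RNA from sorted cells was amplified, biotin-labelled and hybridised to whole-transcript gene arrays, per the labels' protocols. The deposited values are log2 signals per probe set, normalised by the authors; RMA and Partek are named, with no version, order or role, in the submitters' processing notes, and the genome build is not given in the sources used here. Array medians were 6.76 to 6.94. The arrays give no read depth, and 3 arrays per group limit the precision.

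Of 35556 rows, 21789 had 1 gene symbol, 1621 several and 12146 were not in the probe table; 999 genes had more than 1 row and kept the row with the highest mean, leaving 19938 genes. Groups follow the labels. One limma fit (limma 3.58.1, R 4.3.3) of 10 group means with 20 residual degrees of freedom gave 15 comparisons and 4 differences between effects, with two-sided moderated tests and Benjamini-Hochberg adjustment over all genes in each. The fit was tested on simulated data. Motifs were searched with Python 3.11.15.

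The 33 genes may all be named; genes of other lists are given by counts, with at most 4 of a list with the smallest adjusted p in a comparison, any ligand, receptor or signalling gene, and the 10 genes of no list with the highest r. Ifit3b was added as a relative of Ifit3. Members and lists were chosen with earlier results of these data known. The sample titles number the repeats and do not state a pairing. In TN mix against alone at 96 h the deviations of same-numbered arrays correlated at 0.137 to 0.489. The fit with the replicate block called 7 genes there, as without it. Alternatives were quantile normalisation, centring, array weights, a variance trend, a filter on dim genes, row means, fewer groups in the fit, the block, and leaving out each array.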

Additional observations from a re-analysis of the deposited data

Results flagged for a closer look

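Differences between effects that passed the adjusted test are listed with their values, and their causes were not tested. The TN effect of mixing at 96 h and the TN change over 18 h each compare a group with Y transcripts and a group without. For the effect of mixing at 18 h, the TN effect minus the TMem effect was -0.86 for Ddx58. At 96 h it was -1.10 for Ifit1, -2.62 for Ifit3, 0.71 for Oas3 and -0.81 for Oasl2. In TN, the effect of mixing at 96 h minus that at 18 h was -1.35 for Ifit3, 0.88 for Ddx58, 1.04 for Irf7, 0.36 for Irf9, 1.04 for Oas3, 0.78 for Rsad2, 0.78 for Dtx3l and 0.91 for Cmpk2. The change over 18 h of stimulation alone, in TMem minus that in TN, was -1.90 for Rtp4, -0.82 for Dhx58, -1.85 for Ddx58, -0.99 for Irf7, -0.69 for Irf9, -2.34 for Stat2, -0.67 for Usp18, -0.75 for Oas2, -2.20 for Oas3, -1.26 for Oasl2, -1.68 for Xaf1, -1.58 for Parp9, -2.35 for Parp14, -2.21 for Dtx3l, -1.09 for Trim30a, -0.88 for Eif2ak2, -2.01 for Zbp1, -0.99 for Herc6, -0.58 for Cmpk2, -1.23 for Samd9l, -1.19 for Adar and -1.58 for Tap1.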

How the results depend on the processing

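The 33 genes gave 10065 values under the alternatives, of which 1 was reversed with a call: Oas2 in TN alone at 18 h against 0 h, 0.11 and not called as reported, was -0.18 with array weights. Of 328 calls, 270 held in every alternative and 58 were lost in at least 1, while 101 of 299 values not called gained a call in at least 1. The counts of the 33 genes called are followed here by the share of all genes called in the same fit. In TN mix against alone at 18 h, 9 (14.4%) as reported, they were 16 (24.3%) with array weights, 16 (20.9%) with the stimulated groups only and 5 (14.2%) with centring. In TN mix against alone at 96 h, 7 (10.6%) as reported, they were 13 (31.8%) with array weights and 11 (16.1%) with the stimulated groups only, and in TMem mix against alone at 96 h, 8 (1.12%) as reported, 17 (4.54%) and 13 (2.54%). For the difference between these effects at 18 h, 1 (5.17%) as reported, they were 11 (14.8%) with array weights, 10 (10.5%) with the stimulated groups only, 8 (9.84%) with only the groups compared, 2 (5.75%) with quantile normalisation and 0 (4.35%) with centring. For that at 96 h, 4 (3.54%) as reported, they were 12 (16.1%) with array weights and 8 (7.13%) with the stimulated groups only. For the difference between times in TN, 8 (12.4%) as reported, they were 20 (25.8%) with array weights, 16 (19.4%) with the stimulated groups only and 15 (13.5%) with only the groups compared, and for TMem against TN at 0 h, 21 (35.9%) as reported, 13 (20.5%) with only the groups compared. The cause was not tested. Leaving out 1 array gave 5 to 9 in TN mix against alone at 18 h, 6 to 7 at 96 h, 5 to 6 in TMem at 96 h, 21 to 24 for TMem against TN at 0 h, and 0 to 1, 3 to 5 and 7 to 10 for the 3 differences between mixing effects. For the remaining comparisons every count stayed within 1.5 times the reported one. Centring moved the median of all genes to -0.13 from 0.07 in TN mix at 96 h against 18 h and to -0.11 from 0.01 in TMem against TN mix at 18 h. The share of higher genes among all genes called moved by over 10 percentage points with centred arrays, to 60.1% (43.6% as reported) in TN mix 18 h against TN alone 18 h, 49.3% (65.9% as reported) in TN mix 96 h against TN alone 96 h, 36.7% (51.2% as reported) in TMem alone 0 h against TN alone 0 h, 32.2% (57.7% as reported) in TMem mix 18 h against TN mix 18 h, 35.3% (46.2% as reported) in TN alone 96 h against TN alone 18 h, 61.6% (51% as reported) in TMem alone 18 h against TMem alone 0 h, 44.5% (59.6% as reported) in TMem alone 96 h against TMem alone 18 h, 26.1% (55.5% as reported) in TN mix 96 h against TN mix 18 h, 52.7% (27.8% as reported) in mixing effect, TN minus TMem, 18 h, 41.5% (54.3% as reported) in mixing effect, TN minus TMem, 96 h, 38.7% (65.7% as reported) in mixing effect in TN, 96 h minus 18 h, 59.3% (49.2% as reported) in stimulation effect, TMem minus TN, 18 h; with quantile-normalised arrays, to 51.5% (65.9% as reported) in TN mix 96 h against TN alone 96 h, 51.6% (63.8% as reported) in TMem alone 96 h against TN alone 96 h, 44.7% (55.5% as reported) in TN mix 96 h against TN mix 18 h, 52.8% (65.7% as reported) in mixing effect in TN, 96 h minus 18 h. With the replicate block the counts for mix against alone were 8 (13.9%) in TN at 18 h and 7 (10.1%) in TN at 96 h. In TMem they were 0 (0.0301%) at 18 h and 8 (1.07%) at 96 h. Only in TN mix against alone at 96 h did every same-numbered pair of arrays correlate above 0.1. In the other comparisons the correlations were -0.34 to 0.34, and whether these arrays were paired was not tested. The block moved no count by over 1.5 times. Values near background bound what can be read for Mx1 at 18 h and for Ifit3b.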

Other observations

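Samd9l had 1 low array in both mixed groups at 96 h, with 9.69, 8.10 and 9.54 in TMem mix and 9.40, 8.27 and 9.49 in TN mix. Replicate 2 was the low one in both.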
